A study of Sus scrofa with 26 samples.

Results

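The enzymes that break down the branched-chain amino acids were measured in the subcutaneous adipose tissue (SCAT) of growing pigs at thermoneutrality (TN) or under heat stress (HS). The 10 genes described here were chosen by name and cover the successive steps of the pathway, namely BCAT2, BCKDHA, BCKDHB, DBT, IVD, MCCC1, ACADSB, HIBCH, HIBADH and PCCA. They are 10 of the 11795 genes with a name on a porcine microarray and are read by 28 of its 60305 probes. A probe was counted for a gene by its gene name, by the transcript accession or by the description that the array annotation gives. The BCKDHB probe A_72_P202832 was counted only because it shares a GenBank accession with a probe named for BCKDHB. Of the 28 probes, 27 were well above background on all 26 arrays and were tested. The remaining probe (A_72_P250702), assigned to ACADSB by its description, was not well above background on any array and has no further value here.

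SCAT was taken at slaughter from castrated male pigs of the Creole breed, of the Large White breed (LW) and of their cross (F1), which had entered the climatic room at 11 weeks of age. The TN groups (24 °C per the labels) held 3 Creole, 4 F1 and 4 LW animals. The HS groups, kept at 30 °C per the labels and at 32 °C for 4 to 5 days per the description and methods of the study, held 5 animals per breed. All groups had free access to feed, but the study reports that daily feed intake was lower under heat. No TN group was fed to the intake of the HS pigs. Slaughter of the TN pigs preceded the rise in temperature. The effects of heat, feed intake, slaughter day and age therefore cannot be told apart. Each array was hybridised with Cy3-labelled RNA of 1 pig. Per the methods of the study, the pigs of each breed came from 3 blocks of 4 littermates and were penned by 3. Neither the pen nor the parents are in the labels used here. Pigs were therefore treated as independent, although those of a breed shared few litters and pens. The replicate numbers used below only name the arrays.

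Leucine, isoleucine and valine are first transaminated in mitochondria to branched-chain keto acids, which the branched-chain keto acid dehydrogenase complex then decarboxylates in an irreversible step. The pathways of the individual amino acids separate after this complex, leucine ending in acetyl-CoA and acetoacetate, valine in propionyl-CoA, and isoleucine in both acetyl-CoA and propionyl-CoA. Adipocytes are known to oxidise these amino acids and to use their carbon for fatty acid synthesis.

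In the RefSeq annotation of Sscrofa11.1, the build on which the annotation of the array was updated per the study's methods, the 10 genes lie on 8 chromosomes. BCKDHB (chr1:85755819-86017661) and IVD (chr1:130896488-130910582) share chromosome 1, and BCKDHA (chr6:49381995-49398745) and BCAT2 (chr6:54107682-54123595) share chromosome 6. DBT is at chr4:117884657-117924006, PCCA at chr11:68920923-69286431, MCCC1 at chr13:120983226-121070695, ACADSB at chr14:132563002-132607574, HIBCH at chr15:94795744-94941362 and HIBADH at chr18:44985410-45102171. The positions of the probes within these genes were not analysed here.

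The probes are oligonucleotides of 60 bases. Those printed here carry the comparisons between probes of a gene, or read a gene that passed the threshold, and each can be read in at least 1 forward frame without a stop codon. Sequences are given 5′ to 3′ as the array annotation holds them, and capitals mark the longest stretch shared with another probe of the same gene.
BCKDHA, probe A_72_P441234: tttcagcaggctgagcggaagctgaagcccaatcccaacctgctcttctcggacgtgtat
BCKDHA, probe A_72_P571909: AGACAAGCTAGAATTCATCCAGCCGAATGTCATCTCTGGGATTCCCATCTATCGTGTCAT
BCKDHB, probe A_72_P693282: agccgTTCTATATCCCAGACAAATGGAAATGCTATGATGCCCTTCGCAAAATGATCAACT
BCKDHB, probe A_72_P635404: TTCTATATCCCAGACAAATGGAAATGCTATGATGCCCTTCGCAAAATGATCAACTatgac
BCKDHB, probe A_72_P676234: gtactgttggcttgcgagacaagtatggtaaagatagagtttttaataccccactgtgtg
IVD, probe A_72_P713413: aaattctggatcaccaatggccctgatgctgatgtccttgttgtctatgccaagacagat
MCCC1, probe O857: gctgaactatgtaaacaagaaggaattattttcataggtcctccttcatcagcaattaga
HIBCH, probe A_72_P004726: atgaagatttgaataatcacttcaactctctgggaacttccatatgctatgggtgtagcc
PCCA, probe O824: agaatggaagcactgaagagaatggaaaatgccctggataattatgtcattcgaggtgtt
The array prints A_72_P571909 again, with all 60 bases identical, as A_72_P087911, and likewise holds 1 HIBADH sequence under the names A_72_P051436 and O10591. Over the 26 arrays, the log2 levels of the identical probes differed by 0.10 ± 0.11 (mean ± SD) for BCKDHA and by 0.005 ± 0.054 for HIBADH. The BCKDHB probes A_72_P693282 and A_72_P635404 share 55 bases, and the SD of the difference between their levels was 0.059. These SDs measure the technical error between repeated readings of a sequence on 1 array.

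Across the arrays, 41314 to 46185 spots (68.51% to 76.58%) were well above background and none was saturated. Of the adipocyte markers on the array, FABP4 (a fatty acid carrier), ADIPOQ (the hormone adiponectin) and PLIN1 (a coat protein of lipid droplets) were well above background on all 26 arrays. Skeletal muscle markers were also detected, and their score, the mean log2 deviation of the 11 tested genes, ranged from -2.38 to 2.84 between arrays. Among the marker scores, that of the red blood cells (5 tested genes) fell from TN to HS (difference -0.26, permutation p = 0.00514, adjusted p = 0.0256 over 9 marker lists). Its values for single arrays ran from -0.09 to 0.46 in TN and from -0.58 to 0.32 in HS, and 3 of the 5 genes were lower in HS, 1 of them past the threshold (HBB, a hemoglobin chain). The score of 10 fibroblast and matrix markers was higher in HS (difference 0.26, permutation p = 0.00569, adjusted p = 0.0256), with all 10 genes higher and 4 past the threshold, and ran from -0.84 to 0.26 in TN and from -0.26 to 0.53 in HS. It was also higher in LW than in Creole (difference 0.34, permutation p = 0.0153, adjusted p = 0.0459). The adipocyte score was lower in LW than in Creole (difference -0.22, permutation p = 0.00015, adjusted p = 0.00135), with 7 of 8 tested genes lower and LEP (leptin) past the threshold. LEP alone differed by -1.23 on the log2 scale, and the other 7 genes by -0.16 to 0.003, so that LEP carries most of this score. The endothelial score was higher in LW (difference 0.17, permutation p = 0.0104, adjusted p = 0.0459), with KDR (a receptor of vascular growth factors) at 0.87 and the other 6 genes between -0.05 and 0.23. In whole tissue, fewer cells of a type and less RNA per cell cannot be told apart.

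HIBADH, PCCA, BCKDHA and MCCC1 were lower in HS than in TN once breed was accounted for, by 1.13- to 1.33-fold, whereas IVD was 1.52-fold higher on its brightest probe. In this comparison 5 of the 10 enzymes passed the threshold (adjusted p below 0.05), 4 of them lower, against 12.6% of all named genes read by 1 probe each and 7.67% lower. Counted by probes, 13 of the 27 passed, 11 lower and 2 higher, where 12.2% of all tested probes passed and 7.02% were lower. Probes of the same gene are repeated readings, and the BCKDHA and HIBADH sequences held under 2 names count under both. The median log2 difference was -0.12 over the 10 enzymes and -0.005 over all 10157 named genes tested. Differences are on the log2 scale throughout, and the probe of highest mean level stands for a gene where 1 value is given. The adjusted p-values come from limma over all 44703 tested probes.

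**Figure D1:**
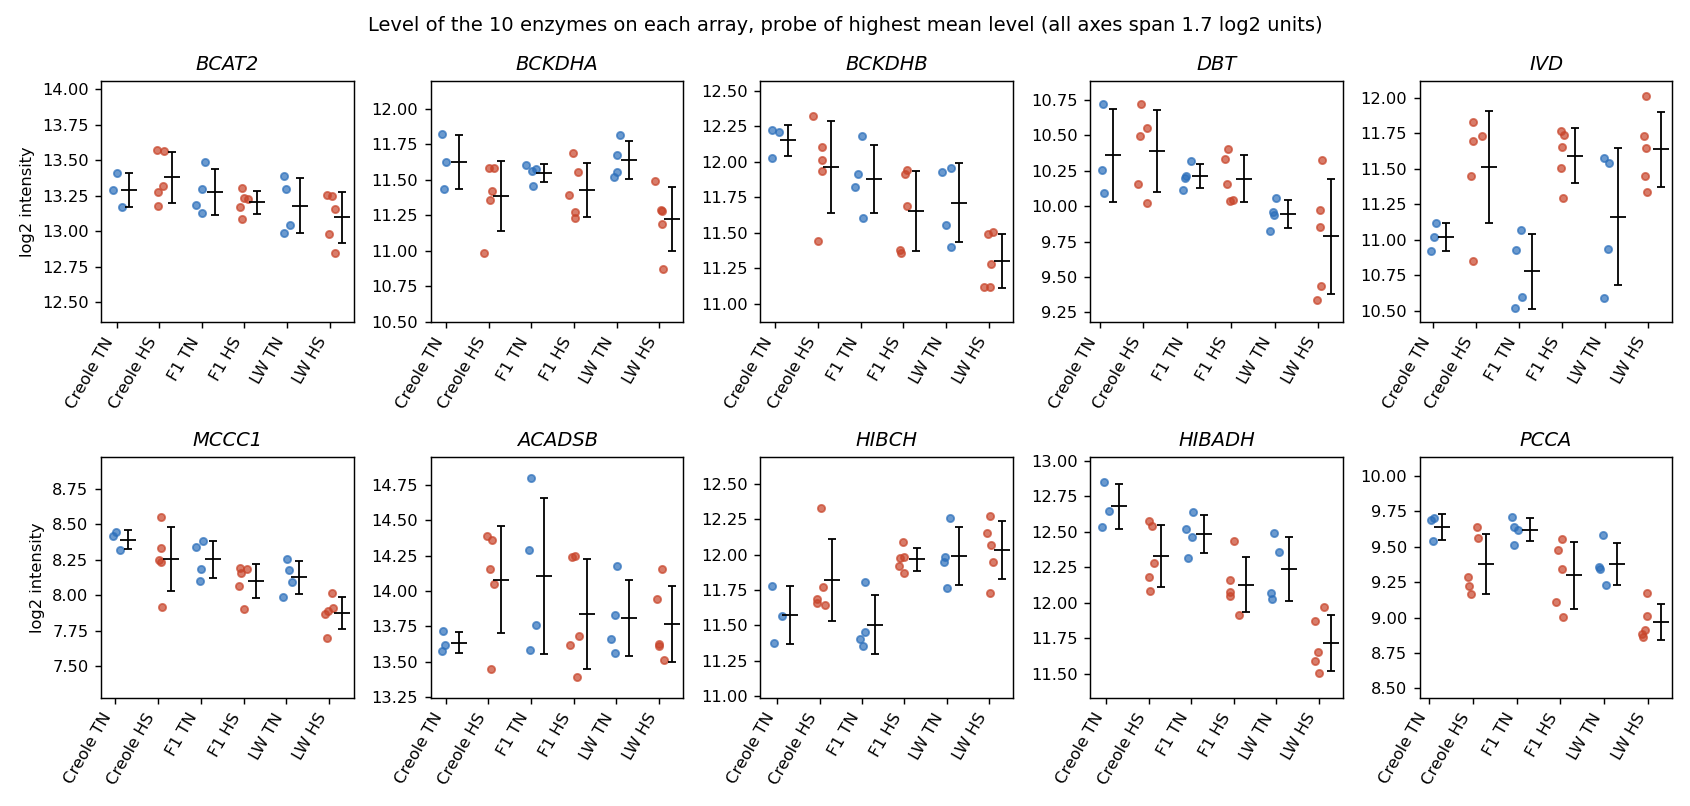
Log2 intensity of the 10 enzymes on each of the 26 arrays, by breed and temperature (blue, TN; red, HS); the bars are the mean ± SD of a group. Levels of HIBADH, PCCA and MCCC1 are lowest in LW under HS, and most HS arrays of IVD lie above those in TN.

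HIBADH, the 3-hydroxyisobutyrate dehydrogenase of valine breakdown, gave the lowest adjusted p of the 10. Its log2 levels in TN were 12.65, 12.85 and 12.53 in Creole, 12.52, 12.31, 12.64 and 12.46 in F1, and 12.36, 12.49, 12.03 and 12.07 in LW. Under HS they were 12.28, 12.18, 12.54, 12.57 and 12.08 in Creole, 12.08, 11.91, 12.04, 12.44 and 12.16 in F1, and 11.87, 11.59, 11.51, 11.65 and 11.97 in LW. All 5 LW pigs under HS lay below every TN pig, while the HS and TN pigs of Creole and of F1 overlapped. The difference was -0.41 ± 0.07 (SE, 15 HS and 11 TN arrays; adjusted p = 0.000993), and all 15 HS arrays lay below the TN mean of their breed. The identical probe O10591 gave -0.40.

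PCCA encodes the biotin-containing subunit of propionyl-CoA carboxylase, where the carbons of valine and isoleucine converge. In TN its log2 levels were 9.70, 9.54 and 9.69 in Creole, 9.71, 9.61, 9.64 and 9.51 in F1, and 9.36, 9.58, 9.23 and 9.34 in LW. Under HS the values were 9.64, 9.56, 9.28, 9.22 and 9.17 in Creole, 9.47, 9.11, 9.01, 9.55 and 9.34 in F1, and 9.01, 8.88, 8.86, 8.91 and 9.17 in LW. Again every LW pig under HS was below every TN pig of any breed. PCCA fell by 0.34 ± 0.07 on the log2 scale (adjusted p = 0.0019), and its other probe, O824, fell by 0.32 (adjusted p = 0.00396).

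The dehydrogenase complex consists of BCKDHA and BCKDHB, which form its decarboxylase component, and of DBT, which carries the acyl group. BCKDHA levels ranged from 11.44 to 11.82 (median 11.57) in the 11 TN pigs and from 10.87 to 11.69 (median 11.35) in the 15 HS pigs, of which 10 were below the lowest TN pig. It was lower in HS by 0.26 ± 0.08 (log2 -0.26, adjusted p = 0.0258). The BCKDHA sequence printed in capitals showed a larger difference, -0.42 (adjusted p = 0.00134) and -0.43 (adjusted p = 0.00118) on its 2 copies. Compared with the brightest probe, A_72_P441234, their response differed by -0.155 and -0.159 (permutation p = 0.00254 and 0.0162, adjusted p = 0.0108 and 0.0459 over 17 pairs of probes). Per the annotation, A_72_P441234 starts at base 1185 of the transcript and the sequence in capitals at base 191. The call on A_72_P441234 was lost in 2 of the 26 fits that left out 1 array (adjusted p up to 0.0558, without LW TN replicate 2).

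BCKDHB lay at the threshold. Its levels were 12.22, 12.21 and 12.03 in Creole, 11.91, 11.82, 12.18 and 11.60 in F1, and 11.96, 11.93, 11.55 and 11.40 in LW at TN. In HS they were 12.32, 12.10, 12.01, 11.93 and 11.44 in Creole, 11.69, 11.36, 11.38, 11.92 and 11.94 in F1, and 11.49, 11.12, 11.12, 11.28 and 11.51 in LW. HS and TN arrays overlapped in all 3 breeds. The brightest of its 6 probes differed by -0.28 ± 0.10 (adjusted p = 0.0567), and the others by -0.26 to -0.34. Of the 6 probes, 3 passed the threshold, among them A_72_P635404 (adjusted p = 0.0404), which shares 55 bases with the brightest one. None of the other BCKDHB probes differed from the brightest in its response to temperature beyond the threshold (adjusted p from 0.16 to 0.915).

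DBT ranged from 9.82 to 10.72 in TN and from 9.34 to 10.72 in HS, and both of its probes gave a difference of -0.05 (95% interval of the brighter one from -0.25 to 0.15, adjusted p = 0.782). BCAT2, the mitochondrial transaminase of the first step, was at 13.24 ± 0.16 (SD, n = 11) in TN and 13.23 ± 0.19 (n = 15) in HS. Its difference of -0.03 had a 95% interval from -0.16 to 0.10 (adjusted p = 0.823), and its other 2 probes gave -0.09 and -0.11.

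IVD, the isovaleryl-CoA dehydrogenase of leucine breakdown, showed the largest difference of the 10. Its levels in TN were 11.12, 10.92 and 11.02 in Creole, 10.93, 10.60, 11.07 and 10.52 in F1, and 11.55, 10.94, 10.59 and 11.58 in LW. Under HS they were 11.83, 11.73, 10.85, 11.70 and 11.45 in Creole, 11.77, 11.51, 11.74, 11.66 and 11.30 in F1, and 11.34, 11.73, 11.45, 12.02 and 11.65 in LW. The 5 F1 pigs under HS were all above the 4 at TN, and 9 of the 15 HS pigs were above the highest TN pig. IVD rose by 0.60 ± 0.12 (adjusted p = 0.00187). The 4 IVD probes did not respond alike. The probe A_72_P715033 rose by 0.53 (adjusted p = 0.02), and both probes that rose lie on 1 cDNA record, starting at its bases 1087 and 1176 per the annotation. On other transcript records, A_72_P713413 differed by 0.17 (adjusted p = 0.169) and A_72_P709942 by 0.01 (adjusted p = 0.973). These 2 probes differed from the brightest one in their response, by -0.42 (permutation p = 0.00213, adjusted p = 0.0108) and -0.57 (permutation p = 0.00555, adjusted p = 0.0189). The mean of all 4 probes rose by 0.33 (adjusted p = 0.0139).

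MCCC1, the biotin-containing subunit of the carboxylase that follows IVD, was read by 1 probe. Its level was 8.25 ± 0.15 (SD, n = 11) in TN and 8.08 ± 0.22 (n = 15) in HS, and 6 HS pigs were below the lowest TN pig. It fell by 0.18 ± 0.06 (adjusted p = 0.0424). The call was lost in 15 of the 26 fits that left out 1 array, with an adjusted p of up to 0.0849 (without LW TN replicate 2).

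ACADSB, the dehydrogenase of isoleucine breakdown, ranged from 13.57 to 14.80 in TN and from 13.39 to 14.39 in HS. Its difference of 0.02 ± 0.14 had a 95% interval from -0.27 to 0.31 (adjusted p = 0.939).

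HIBCH, the hydrolase that releases 3-hydroxyisobutyrate upstream of HIBADH, was read by 2 probes that moved apart. The brighter one, A_72_P004726, measured 11.37, 11.57 and 11.78 in Creole, 11.46, 11.35, 11.41 and 11.81 in F1, and 11.95, 11.77, 11.98 and 12.26 in LW at TN. In HS it measured 11.69, 11.64, 11.66, 11.77 and 12.33 in Creole, 11.92, 11.98, 12.09, 11.87 and 11.98 in F1, and 11.73, 11.95, 12.07, 12.27 and 12.15 in LW. The 5 F1 pigs under HS lay above the 4 at TN, and the arrays of the other breeds overlapped. Its difference was 0.25 ± 0.08 (adjusted p = 0.053), against -0.17 for A_72_P360228 (adjusted p = 0.141). The difference between the probes was -0.42 (permutation p = 0.00202, adjusted p = 0.0108), and their mean differed by 0.04 (adjusted p = 0.701). The probe A_72_P004726 owes its name to a description that matches it to 9% of the human protein. Similarly, the HIBADH probe A_72_P226822, named by a match to 35% of the dog protein, differed by 0.16 (adjusted p = 0.417), in contrast with the other HIBADH sequence (difference between probes 0.56, permutation p = 0.00086, adjusted p = 0.0108).

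**Figure D2:**
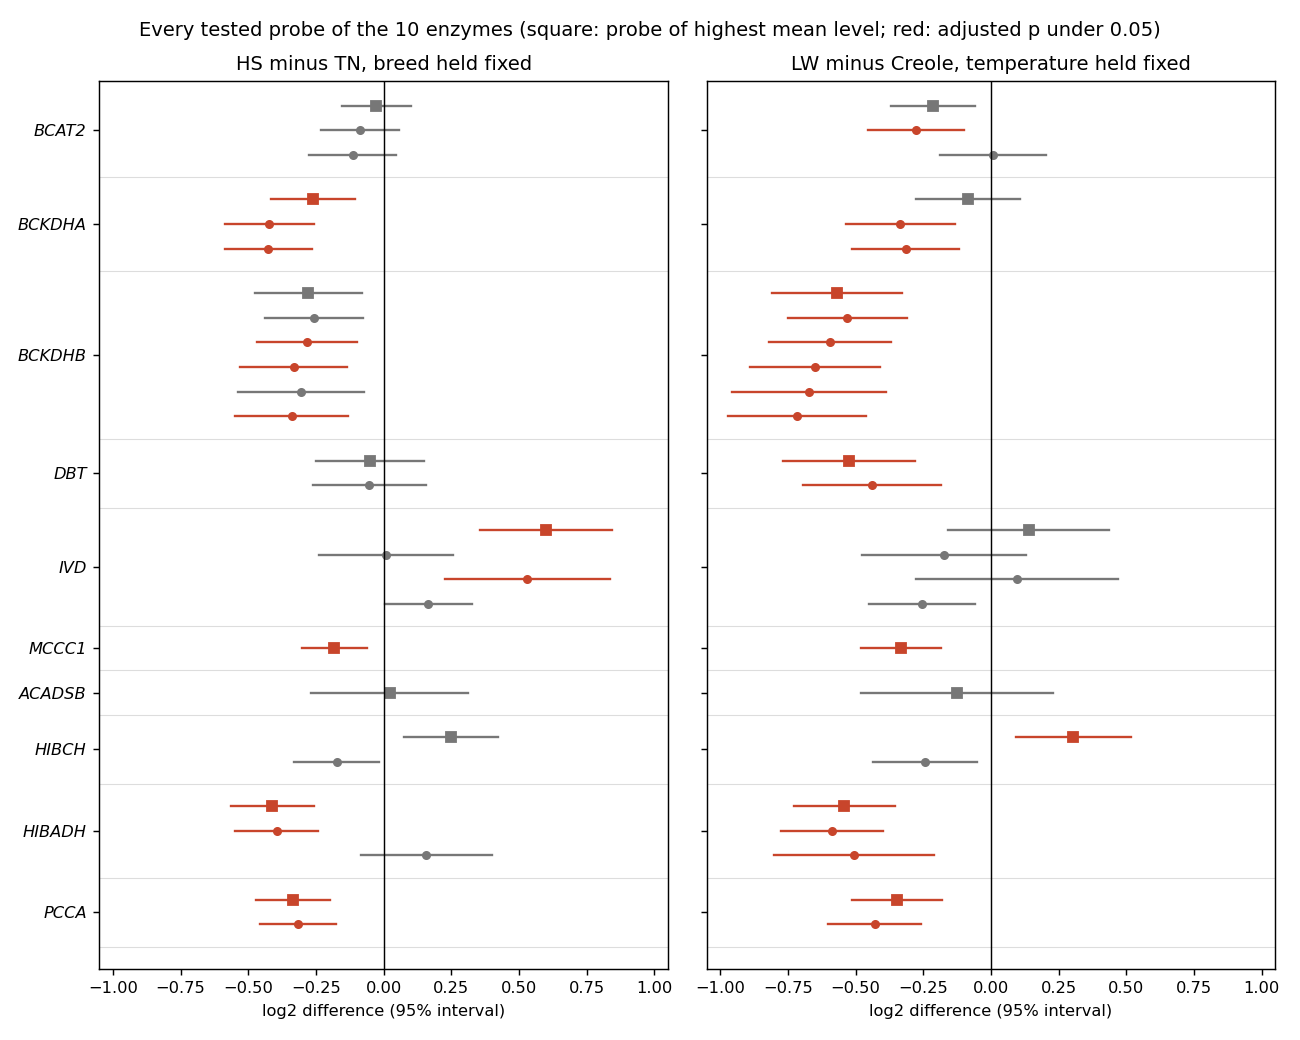
Log2 difference with its 95% interval for each of the 27 tested probes, HS minus TN (left) and LW minus Creole (right); squares are the brightest probe of a gene and red marks an adjusted p under 0.05. All 6 BCKDHB probes lie left of 0 in both panels, while the probes of IVD, HIBCH and HIBADH do not lie together in the left panel.

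The arrays were printed on 5 slides, each holding pigs of both temperatures, with 1 to 3 TN arrays per slide. With the fitted breed effect removed, HIBADH, PCCA, MCCC1 and BCKDHB were lower in HS on all 5 slides and IVD and HIBCH higher on all 5. BCKDHA was lower on 4 of them, with a difference of 0.10 on the remaining slide. The range over slides was from -0.70 to -0.18 for HIBADH, from -0.47 to -0.30 for PCCA and from 0.46 to 0.76 for IVD. The slides divide the same arrays and are not a replication. The share of all genes with the same sign on every slide is not given here.

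Marker scores were entered as covariates. Those of red blood cells and of fibroblast and matrix had moved with temperature. The muscle and adipocyte scores had not passed (permutation test, adjusted p = 0.396 and 0.435). With the red blood cell score in the model, the share of all tested probes that passed fell from 12.2% to 2.04%, and 2 of the 10 enzymes passed, IVD at 0.58 (adjusted p = 0.0365) and HIBADH at -0.33 (adjusted p = 0.0451). BCKDHA kept its size at -0.26 (adjusted p = 0.14), PCCA was at -0.26 (adjusted p = 0.0756) and MCCC1 at -0.12 (adjusted p = 0.373). With the fibroblast and matrix score, under which 3.39% of all probes passed, IVD (0.55), BCKDHA (-0.32), HIBADH (-0.28) and PCCA (-0.32) passed, with adjusted p-values from 0.026 to 0.0492, and MCCC1 did not (-0.12, adjusted p = 0.342). With the muscle score (16.2% of all probes), BCKDHB (-0.31, adjusted p = 0.0326) and HIBCH (0.31, adjusted p = 0.00552) passed as well. With the adipocyte score (9.62% of all probes), IVD, BCKDHA, HIBADH and PCCA passed and MCCC1 did not (-0.16, adjusted p = 0.0754). The fibroblast and the muscle score were added as covariates after the data had been seen.

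**Figure D3:**
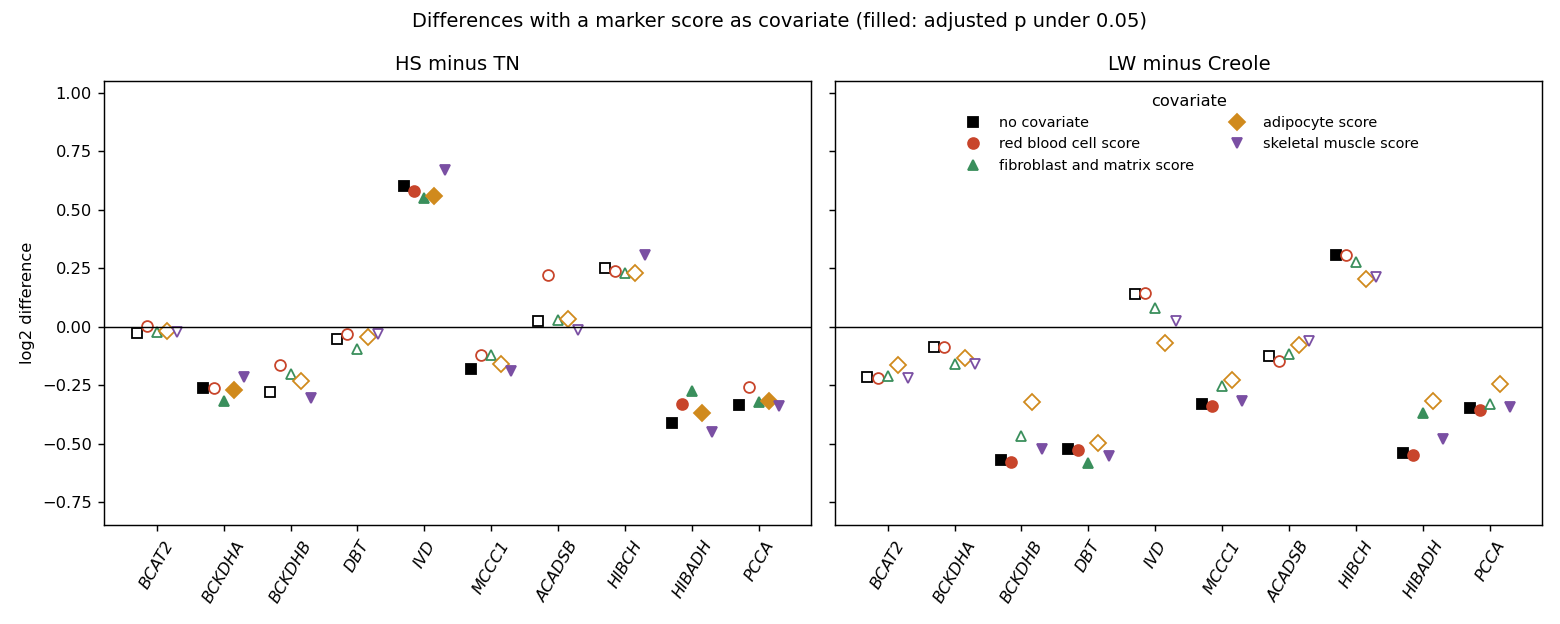
Log2 difference of each enzyme, HS minus TN (left) and LW minus Creole (right), without a covariate and with each of 4 marker scores as a covariate; filled symbols have an adjusted p under 0.05. IVD and HIBADH are filled under all settings on the left, and no symbol of the adipocyte score is filled on the right.

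HIBADH, BCKDHB, DBT, PCCA and MCCC1 were 1.26- to 1.48-fold lower in LW than in Creole pigs at equal temperature, and HIBCH was 1.24-fold higher on its brighter probe. Of the 10 enzymes, 6 passed the threshold, 5 of them lower, against 15.3% of named genes read by 1 probe each and 8.61% lower. By probes, 18 of 27 passed and 17 of these were lower, where 14.3% of all tested probes passed and 7.43% were lower. The 18 include all 6 BCKDHB probes and both copies of the repeated BCKDHA and HIBADH sequences. The median difference was -0.27 over the enzymes and -0.009 over all named genes tested. In a test of any difference between the 3 breeds, 5 of the 10 enzymes and 15 of the 27 probes passed, against 11.3% of all probes.

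HIBADH was at 12.46 ± 0.26 (SD, n = 8) in Creole and 11.95 ± 0.34 (n = 9) in LW, where 7 of 9 pigs lay below the lowest Creole pig. The difference was -0.54 ± 0.09 (adjusted p = 0.000597), and all 3 of its probes passed, the partly matching A_72_P226822 included at -0.51 (adjusted p = 0.0204). All 6 BCKDHB probes passed, with differences from -0.53 to -0.72. The brightest went from 12.03 ± 0.27 in Creole to 11.48 ± 0.31 in LW (-0.57 ± 0.12, adjusted p = 0.00274). The probe A_72_P676234, which starts at base 328 of the transcript, gave the largest difference and differed from the brightest, which starts at base 1126, by -0.15 (permutation p = 0.00095, adjusted p = 0.00808).

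DBT, which showed no difference past the threshold with temperature, was 10.38 ± 0.28 in Creole and 9.86 ± 0.30 in LW. Its log2 levels in LW were 9.94, 9.82, 10.06 and 9.95 at TN and 9.43, 9.98, 9.34, 10.33 and 9.85 in HS. In Creole they were 10.72, 10.09 and 10.26 at TN and 10.72, 10.55, 10.49, 10.02 and 10.16 in HS. LW TN replicate 3 and LW HS replicate 4 lay within the Creole range, and the other 7 of the 9 LW pigs were below all Creole pigs. The difference was -0.52 ± 0.12 (adjusted p = 0.00523), and the second probe gave -0.44 (adjusted p = 0.0197).

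MCCC1 was lower in LW by 0.33 ± 0.07 (log2 -0.33, adjusted p = 0.00394) and PCCA by 0.35 ± 0.08 (log2 -0.35, adjusted p = 0.00617), with 4 LW pigs below all Creole pigs in each case. For BCKDHA the printed probe A_72_P441234 gave -0.09 (adjusted p = 0.583), while both copies of A_72_P571909 passed at -0.33 and -0.31 (adjusted p = 0.0228 and 0.0292). The response to breed thus differed between these probes too, by -0.23 (permutation p = 0.0004, adjusted p = 0.0068) and -0.21 (permutation p = 0.0116, adjusted p = 0.0493). BCAT2 differed by -0.21 ± 0.08 (adjusted p = 0.0594) on its brightest probe, by -0.28 on O9326 (adjusted p = 0.0313) and by 0.01 on A_72_P236737 (adjusted p = 0.965).

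HIBCH was higher in LW on A_72_P004726, at 0.30 ± 0.10 (adjusted p = 0.049), and was at -0.24 on A_72_P360228 (adjusted p = 0.0787). The difference between the 2 probes was -0.55 (permutation p = 0.00504, adjusted p = 0.0286), and the mean of both differed by 0.03 (adjusted p = 0.808). The call on the brighter probe was lost in 19 of the 26 fits without 1 array (adjusted p up to 0.0975, without Creole TN replicate 1). Neither IVD (0.14, adjusted p = 0.56) nor ACADSB (-0.13, adjusted p = 0.677) passed.

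LW and Creole pigs shared 4 slides, with 1 to 3 Creole arrays on each, and the share of all genes with 1 sign on all of them is not given here. With the fitted temperature effect removed, BCKDHB, DBT, MCCC1, HIBADH and PCCA were lower and HIBCH higher in LW on all 4. With the adipocyte score as a covariate, 0.796% of all tested probes passed for LW against Creole in place of 14.3%, and none of the enzymes did (limma). The 5 enzymes that were lower in LW then had differences from -0.50 (DBT, adjusted p = 0.158) to -0.23 (MCCC1, adjusted p = 0.277). Breed and adipocyte score hardly overlapped, with scores from 0.02 to 0.38 in Creole and from -0.29 to 0.02 in LW. With the fibroblast and matrix score (2.42% of all probes), DBT (-0.58, adjusted p = 0.0328) and HIBADH (-0.37, adjusted p = 0.0344) passed.

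The mean of the F1 pigs lay between those of the parental breeds for 8 of the 10 enzymes, the exceptions being IVD and ACADSB, and for 49.8% of all named genes tested. For BCKDHA this place rests on a difference between F1 and Creole of -0.01 ± 0.09, and its probe A_72_P087911 gave 0.007. No enzyme passed the threshold for F1 against Creole (limma, 0 of 27 probes), where 0.262% of all probes passed. At an unadjusted p under 0.05 there were 9 of the 27, against 4359 of all 44703 probes. On the brightest probes these were BCKDHB (-0.30, 95% interval from -0.54 to -0.06), HIBADH (-0.20) and MCCC1 (-0.15), all lower in F1. Against LW, HIBADH (0.34 ± 0.09, adjusted p = 0.0328) and PCCA (0.29 ± 0.08, adjusted p = 0.0374) were higher in F1. Both calls were lost with slide as a fixed block (adjusted p = 0.058 and 0.128), that of HIBADH in 9 and that of PCCA in 11 of the 26 fits without 1 array, each with its highest adjusted p (0.0665 and 0.0753) without F1 HS replicate 4. Together with probes of BCKDHA and BCKDHB, 6 of 27 probes passed, all higher in F1, against 4.24% of all probes and 2.47% higher. No enzyme passed the threshold against the mean of the parental breeds (limma, 0 of 27 probes), as for all but 0.00671% of all probes. At an unadjusted p under 0.05 there was none of the 27, against 3885 of all 44703 probes. The 95% interval of that difference was from -0.14 to 0.13 for BCAT2, from -0.22 to 0.19 for BCKDHB and from -0.38 to 0.13 for IVD.

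The change with temperature was then estimated within each breed. In LW it passed for HIBADH (-0.52 ± 0.13, adjusted p = 0.0395), for both copies of the second BCKDHA sequence (-0.60 and -0.65, adjusted p = 0.0223 and 0.0138) and for the PCCA probe O824 (-0.47, adjusted p = 0.0387). These made up 5 of 27 probes with the second copy of HIBADH, all lower, against 1.5% of all probes. The HIBADH call in LW was lost in 6 of the 26 fits without 1 array (adjusted p up to 0.144, without LW TN replicate 2) and in 7 of 14 other settings, among them slide as a fixed block (adjusted p = 0.0564) and the LW arrays alone (adjusted p = 0.072). In Creole none of the 27 passed (limma), and 0.0716% of all probes did. At an unadjusted p under 0.05 there were 5 of the 27 in Creole, against 4977 of all 44703 probes. In F1 none passed either, with 0.421% of all probes. There, 10 of the 27 had an unadjusted p under 0.05, against 7131 of all 44703 probes. The largest estimate within a breed was that of IVD in F1, 0.82 ± 0.20 (adjusted p = 0.0636), and it was 0.49 in Creole and 0.47 in LW. HIBADH was at -0.35 in Creole and -0.36 in F1, and PCCA at -0.27 and -0.32.

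**Figure D4:**
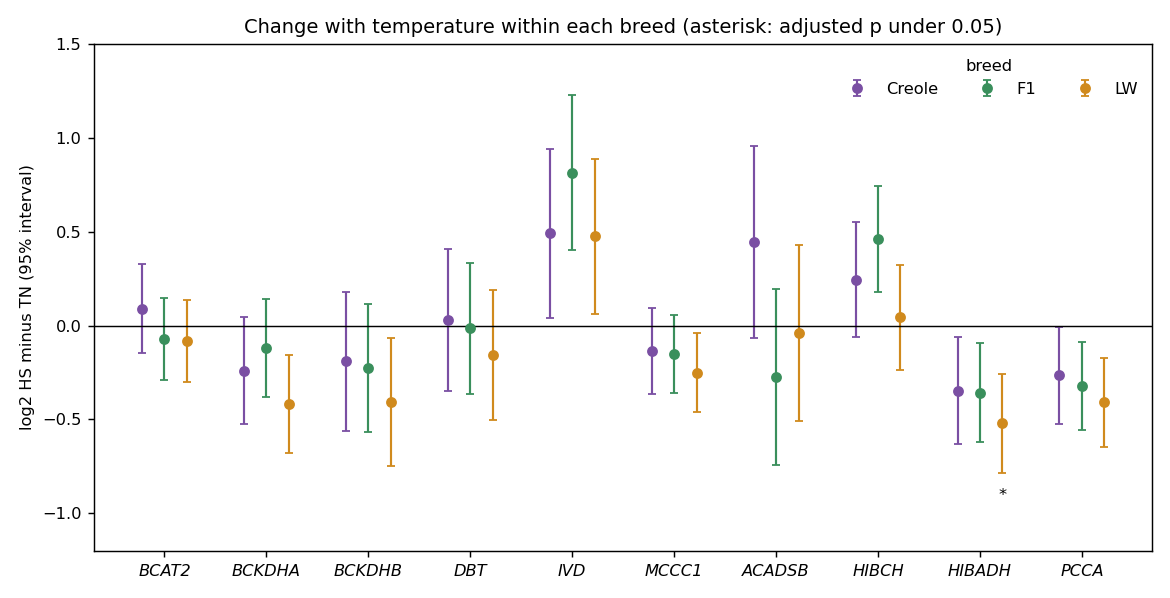
Log2 difference HS minus TN of each enzyme (brightest probe) within Creole, F1 and LW pigs with its 95% interval; the asterisk marks an adjusted p under 0.05. The intervals of the 3 breeds overlap for each enzyme, and the asterisk stands at HIBADH in LW (-0.52), a call that was lost in 6 of the 26 fits without 1 array.

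The interaction of breed and temperature did not pass for any enzyme (limma, 0 of 27 probes, adjusted p from 0.897 to 0.957 on the brightest probes), and 0.00224% of all probes passed. At an unadjusted p under 0.05 there was 1 of the 27, against 2342 of all 44703 probes. The probe with the low unadjusted p was A_72_P709942 of IVD (adjusted p = 0.897), at 0.31 in Creole, 0.17 in F1 and -0.40 in LW. A call within LW alone thus does not show that the breeds responded differently. For BCKDHA the change was -0.24 ± 0.14 in Creole, -0.12 ± 0.13 in F1 and -0.42 ± 0.13 in LW (adjusted p of the interaction 0.901).

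Ordered by level, LW pigs under HS formed the lowest group for 7 of the 10 enzymes, namely BCAT2, BCKDHA, BCKDHB, DBT, MCCC1, HIBADH and PCCA. The highest group was Creole at TN for BCKDHB, MCCC1, HIBADH and PCCA. The share of all named genes with these orders is not given here, so the counts only describe these enzymes. The distance between the highest and the lowest group mean was largest for HIBADH (0.96), IVD (0.86) and BCKDHB (0.85) and smallest for BCAT2 (0.28). Neighbouring groups in this order had overlapping arrays in all 50 cases (5 steps for each of 10 enzymes). The differences between groups thus appear over several steps, as between Creole at TN (HIBADH 12.68 ± 0.16) and LW under HS (11.72 ± 0.20), whose arrays did not overlap.

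The levels of several enzymes varied together between pigs of the same group. After removal of the 6 group means, Pearson's r over the 26 arrays was calculated for all 45 pairs of enzymes, with p-values from 10000 permutations within groups. After Benjamini-Hochberg adjustment over the 45 pairs, 9 pairs passed by Pearson's r and 8 of them also by Spearman's rho. The median r was 0.24 and 17.8% of the pairs exceeded 0.5, compared with 0.0025 and 3.26% over all pairs of named genes. All levels of a pig come from 1 array, so that array quality and tissue composition are shared by all genes.

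The closest pair was BCKDHB and MCCC1 (r = 0.83, permutation p = 1e-04, the smallest that 10000 permutations can give, adjusted p = 0.00225; rho = 0.81, permutation p = 2e-04, adjusted p = 0.003). Without the 2 arrays farthest from the median of BCKDHB, r was 0.80. MCCC1 and PCCA followed (r = 0.78, permutation p = 1e-04, adjusted p = 0.00225; rho = 0.79, permutation p = 1e-04, adjusted p = 0.003), with r = 0.74 without the 2 farthest arrays. The correlation of BCKDHB with PCCA was 0.75 (permutation p = 3e-04, adjusted p = 0.00337; rho = 0.75, permutation p = 4e-04, adjusted p = 0.0045) and remained at 0.75 without 2 arrays. With slide means removed as well, these 3 correlations were 0.90, 0.84 and 0.81. With the matrix, red blood cell or muscle score removed, they lay between 0.72 and 0.82. The adipocyte score was not removed, so tissue composition is not fully accounted for.

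BCAT2 correlated with PCCA (r = 0.70), BCKDHB (0.69) and MCCC1 (0.63), and BCKDHB with HIBADH (0.68), with adjusted permutation p-values from 0.003 to 0.0158 for r and from 0.003 to 0.0112 for rho. For BCAT2 and BCKDHA, r was 0.55 (permutation p = 0.0074, adjusted p = 0.037; rho = 0.50, permutation p = 0.0123, adjusted p = 0.0503) and dropped to 0.36 without the 2 farthest arrays, so that this relation rests on them. HIBCH, on its brighter probe, ran opposite to BCKDHB (r = -0.68, permutation p = 0.001, adjusted p = 0.0075; rho = -0.61, permutation p = 0.002, adjusted p = 0.0112), with r = -0.51 without 2 arrays. None of the pairs with IVD, DBT or ACADSB passed.

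**Figure D5:**
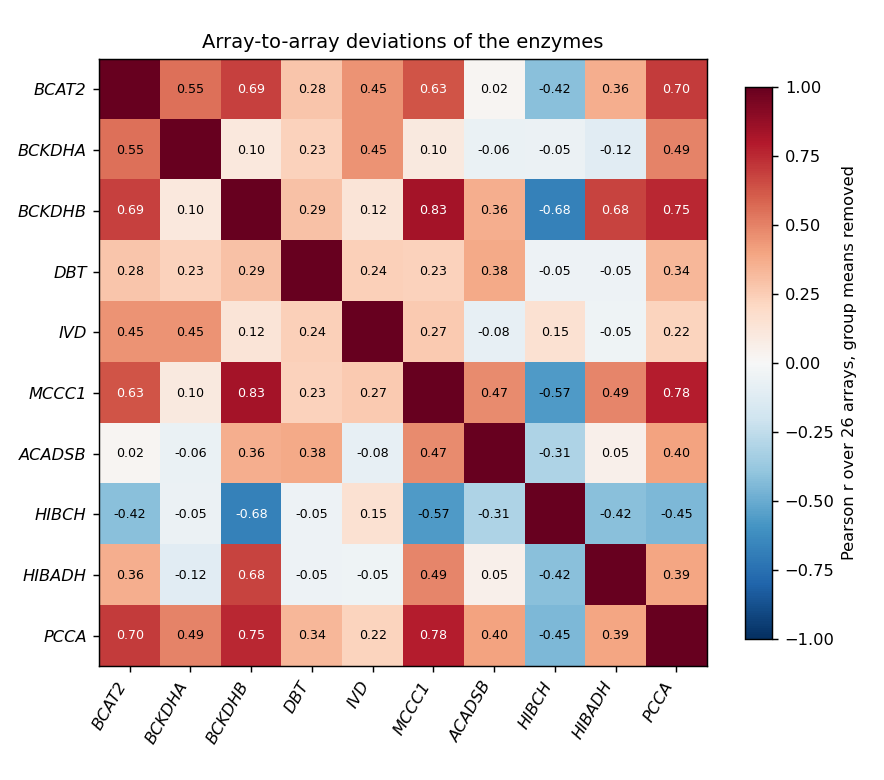
Pearson's r between the enzymes over the 26 arrays after removal of the 6 group means (red, positive; blue, negative). BCAT2, BCKDHB, MCCC1 and PCCA have correlations with each other from 0.63 to 0.83, and HIBCH is negative with BCKDHB (-0.68).

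Other genes of the pathway were taken from a list of 27, of which 22 were named on the array and 21 were tested. With temperature, 5 passed, 4 lower and 1 higher, against 12.6% of all named genes. DLD, the dihydrolipoyl dehydrogenase shared with other keto acid dehydrogenases, was 13.05 ± 0.26 (SD, n = 11) in TN and 12.67 ± 0.39 (n = 15) in HS (-0.41 ± 0.10, adjusted p = 0.00762), and its other 9 probes had the same sign. MCEE (-0.36, adjusted p = 0.00206) and PCCB (-0.22, adjusted p = 0.0155), the epimerase after propionyl-CoA carboxylase and the partner subunit of PCCA, were lower, with all of their other 4 and 7 probes on the same side. ACAT1, the thiolase that closes isoleucine and ketone body breakdown, was lower by 0.25 ± 0.05 (log2 -0.25, adjusted p = 0.00398). MUT, the methylmalonyl-CoA mutase, was higher by 0.09 ± 0.03 (adjusted p = 0.0271), and 1 of its other 2 probes had that sign. Its level was 18.72 ± 0.07 (SD) in TN and 18.81 ± 0.05 in HS, above the mean of the adipocyte marker FABP4 (18.35). Whether this probe reads MUT alone was not tested.

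Between LW and Creole, 4 of the 21 passed, against 15.3% of all named genes, a share near that of the list. All were lower in LW, namely DLD (-0.57, adjusted p = 0.00301), ALDH6A1 of valine breakdown (-0.32, adjusted p = 0.0141), PCCB (-0.24, adjusted p = 0.0264) and MMAB, which makes the cobalamin cofactor of the mutase (-0.65, adjusted p = 0.0143). The remaining 14 genes passed neither comparison. The calls of PCCB for breed and of MUT for temperature were lost in 5 and 3 of the 26 fits without 1 array (adjusted p up to 0.0578, without Creole HS replicate 1, and up to 0.0546, without Creole TN replicate 2). With the red blood cell score as a covariate (2.04% of all probes called) 1 of the 21 passed for temperature, and with the adipocyte score (0.796%) none passed for breed.

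For comparison, 6 of 13 tested enzymes of the TCA cycle and 11 of 18 of fatty acid oxidation were lower in HS past the threshold, with median differences of -0.25 and -0.24. Between LW and Creole, 6 of 13 and 6 of 18 were lower, with medians of -0.22 and -0.16, and 1 of the 18 was higher. The medians of the 10 enzymes were -0.12 for temperature and -0.27 for breed, and no test set these lists against each other.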

How the data were processed

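SCAT RNA of 26 pigs was hybridised to 26 one-colour arrays, scanned and quantified by the authors with Agilent Feature Extraction 10.10.1.1. The authors' deposited scanner tables give the pixel intensity of each spot and its flags (0 or 1), not normalized between arrays. A second deposited table gives log2 median intensity after quantile normalization by the authors, for 44104 probes, and served as an alternative. Here, median intensities without background correction were quantile-normalized and transformed to log2 after up to 16 non-uniform spots per array were set to missing, none of them of a member. A probe was kept (44703 in all) if 8 or more arrays had it well above background, and limma 3.58.1 (R 4.3.3; lmFit, eBayes with an intensity trend) was fitted to all of them. Temperature was tested with breed as a fixed effect and breed with temperature as a fixed effect. Within-breed changes and the interaction came from 6 group means. P-values were adjusted by Benjamini-Hochberg, with a threshold of 0.05. Pen, slaughter day, father and mother, random effects in the model of the authors, are not in the labels and were left out.

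Differences between probes of 1 gene and marker scores were tested by two-sided permutation within breed or temperature (100000 draws). On simulated data for HS minus TN, with changes of 1 log2 unit, 194 of 200 changed probes were recovered over 44703 probes, with 12 false calls. The differences of the enzymes with temperature were smaller, at most 0.60 in size. The recovery therefore does not show how often differences of their size are found. The simulated noise was independent between arrays, without litter, pen or slide. All members are named, and of the other pathway genes those past the threshold in either comparison. Alternatives covered background correction, scaling, the filter on dim probes, slide as a block, array weights, marker scores as covariates, the mean of all probes of a gene and leaving out each array. P-values measure the spread between pigs as if these were independent, although the pigs of a breed came from few litters and shared pens. They may therefore be too small. The members, the gene lists and the tests were chosen with earlier results of these data known. The number of arrays limits the precision. Summaries and figures were made with Python 3.11.15, pandas 2.3.3 and matplotlib 3.10.9. The deposited files give no genome coordinates, and those of the genes were taken from RefSeq (Sscrofa11.1) by symbol, with all 10 matched.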

Additional observations from a re-analysis of the deposited data

Results flagged for a closer look

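The HIBCH level of Creole HS replicate 5 on the brighter probe was 12.33, away from the other 4 pigs of its group (11.64 to 11.77), with a gap of 0.81 of the whole range of the group. This was 1 of 50 combinations of enzyme and group examined for such an array, and chance alone gives about 1 in 20. In the same pig BCKDHB (11.44), MCCC1 (7.92), HIBADH (12.08), PCCA (9.17) and ACADSB (13.45) had the lowest level of their group. BCAT2, BCKDHA, DBT and IVD did not.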

How the results depend on the processing

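For HS minus TN, the 10 enzymes stayed on their side of the threshold in 121 of 140 values under other settings and 232 of 260 without 1 array, and for LW minus Creole in 112 of 130 and 238 of 260. No called difference changed sign. Among those not called, the sign changed for HS minus TN in 10 values of ACADSB and 1 of BCAT2, and for LW minus Creole in 2 of IVD. The number of enzymes past the threshold for HS minus TN (5) went to 2 with the red blood cell score as a covariate and to between 3 and 7 without 1 array, the lowest without LW TN replicate 2. For LW minus Creole (6) it was 0 with the adipocyte score, 2 with the fibroblast and matrix score and 5 to 7 without 1 array, and for any breed difference (5) it was 0 with either score and 5 to 6 without 1 array. For F1 minus LW (2) it was 1 without the filter on dim probes, 0 with slide as a fixed block, 0 with the adipocyte or the fibroblast score and 0 to 2 without 1 array, with 0 without F1 TN replicate 1 or 3, F1 HS replicate 4 or 5, LW TN replicate 3 or 4 or LW HS replicate 2 or 3. Within F1 (0) it was 1 with array weights, with the adipocyte score or with the muscle score, and 0 to 1 without 1 array (1 without Creole HS replicate 3 or 5 or LW TN replicate 3). Within LW (1) it was 2 with 75th percentile scaling, array weights or the mean of all probes of a gene, and 3 with the muscle score. It was 0 without the filter, with slide as a fixed block, with the red blood cell, adipocyte or fibroblast score and with the LW arrays alone, and 0 to 2 without 1 array (0 without LW TN replicate 1, 2 or 3 or LW HS replicate 2, 3 or 4, and 2 without LW HS replicate 5). Of the other pathway genes, the 5 past the threshold for HS minus TN became 1 with the red blood cell score, 2 with the fibroblast score and 2 without a breed term, with 4 to 7 without 1 array. The 4 for LW minus Creole became 0 with the adipocyte or the fibroblast score and 7 with the mean of all probes, with 3 to 5 without 1 array. Calls over all 44703 tested probes changed as well. With slide as a fixed block they went from 1894 to 363 for F1 minus LW and from 671 to 114 within LW. For HS minus TN they rose from 5445 to 6018 under that setting. Calls for any breed difference went from 5062 to 402 with the adipocyte score and to 731 with the fibroblast and matrix score. The cause of these changes was not tested. No paired analysis was possible because the labels give no replicate numbers that groups share.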
